A study of Pinus pinaster with 18 samples.

Results

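DNA replication licensing and single-strand protection were followed in maritime pine (*Pinus pinaster*) embryos through 4 transcripts of the 287424 in the deposited count table. They are matches to the licensing helicase subunit MCM5 (ppt_62928), the licensing factor CDT1 A (ppt_224322), the replication protein A (RPA) 70 kDa DNA-binding subunit B (ppt_108037) and a replication protein A DNA-binding subunit (ppt_285974). The members were picked by identifier with results of these same libraries already known, so their levels and differences are given as a description and carry no test. The protein names are best matches in other species (rice, cacao, pineapple and Anthurium), taken from the tables of the study.

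The 18 RNA libraries cover 6 stages with 3 libraries apiece. The somatic embryos all came from the embryogenic line PN519, a single genotype, matured in the dark at 24 °C on a modified Litvay medium that held 9 g/L gellan gum, 68 g/L sucrose and, as the maturation hormone, 80 µM abscisic acid. They were taken as translucent early-stage embryos after 4 to 6 weeks (ES1), as opaque pre-cotyledonary embryos after 6 to 10 weeks (ES2) and as cotyledonary embryos after 12 to 14 weeks (ES3). The zygotic embryos were untreated and excised from seeds of 1 seed orchard at 3 stages named PC (pre-cotyledonary), EC (early cotyledonary) and C (cotyledonary). Embryo type cannot be told apart from genotype, culture and harvest, and the stage pairs follow the study (ES1 with PC, ES2 with EC, ES3 with C), although both ES2 and PC are labelled pre-cotyledonary. The study's methods speak of 3 technical replicas of 3 independent biological samples, without saying whether a stage's 3 libraries are the one or the other, so the spread between them may be technical.

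A dividing cell prepares its replication origins before S phase. The origin recognition complex marks the origin, and CDT1 helps to load the ring-shaped MCM helicase, of which MCM5 is a subunit, so that each origin can fire a single time per cycle. Once the helicase unwinds the DNA, replication protein A coats the exposed single strands until the polymerases copy them. RNAs of this machinery are abundant in proliferating plant tissue and low where cells have left the cycle.

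Total counts were 22725467 to 43510184 in the 15 libraries outside C and 74949347 to 89590401 in C. A set of 137783 transcripts had counts in C alone and held 29.05 to 29.43% of the C counts. Each C library had counts for 132828 to 136626 transcripts, and each other library for 24704 to 25194. Whether C reads of a gene went to transcripts counted in C alone was not tested. Such a split could lower a level at C under any scaling. Levels are CPM, counts set to a common library total, with trimmed-mean (TMM) scaling factors, which were 0.422 to 0.4278 in C and 0.8245 to 1.442 elsewhere, so the level of any transcript in C depends on this scaling. All 4 members were among the 23118 transcripts kept at above 2 CPM in at least 6 libraries. In whole embryos, fewer dividing cells and less of an RNA per dividing cell cannot be told apart.

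MCM5, a subunit of the helicase ring, was most abundant at the earliest stage of each embryo type. In somatic embryos it measured 28.4, 27.1 and 25.4 CPM at ES1, 12.1, 13.2 and 13.1 CPM at ES2, and 10.1, 11.8 and 8.97 CPM at ES3. In zygotic embryos it measured 62.7, 62.2 and 60.5 CPM at PC, 36.8, 40.9 and 42.5 CPM at EC, and 1.06, 1.39 and 1.20 CPM at C. The ranges of the 6 stages did not overlap, although ES3 lay only just under ES2. The C libraries held 25, 37 and 27 counts of it.

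CDT1 A, which helps to load the helicase, varied least of the 4 over the stages. It measured 16.9, 16.9 and 16.1 CPM at ES1, 9.80, 10.99 and 11.1 CPM at ES2, and 14.8, 13.1 and 10.9 CPM at ES3. The ES3 libraries overlapped those of ES2. In zygotic embryos it measured 39.9, 37.7 and 33.0 CPM at PC, 27.6, 33.7 and 28.3 CPM at EC, and 19.4, 12.0 and 10.6 CPM at C, where replicate 1 stood above the other 2. The EC and PC ranges overlapped, and so did those of ES3 and C.

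RPA subunit B, matched to a 70 kDa DNA-binding subunit, had the widest range of the 4. It measured 46.9, 49.8 and 49.2 CPM at ES1, 20.5, 17.1 and 18.9 CPM at ES2, and 10.4, 10.9 and 13.7 CPM at ES3. It measured 121.7, 108.7 and 96.7 CPM at PC, 60.7, 62.2 and 67.6 CPM at EC, and 0.170, 0.263 and 0.266 CPM at C. The C libraries held 4, 7 and 6 counts of it, 17 in all with an exact Poisson 95% interval of 9.90 to 27.2, which covers counting error only. No 2 stages of the same embryo type overlapped.

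The other replication protein A transcript, ppt_285974, had the widest gap of the 4 between somatic and zygotic embryos in both earlier stage pairs. It measured 19.1, 15.3 and 18.1 CPM at ES1, 9.27, 8.76 and 9.33 CPM at ES2, and 6.14, 8.84 and 5.33 CPM at ES3. It measured 104.8, 94.2 and 92.2 CPM at PC, 54.2, 56.6 and 66.6 CPM at EC, and 10.7, 11.3 and 13.8 CPM at C. The ES3 range overlapped that of ES2 through replicate B. Unlike RPA subunit B, it kept 251 to 310 counts per library at C.

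**Figure D1:**
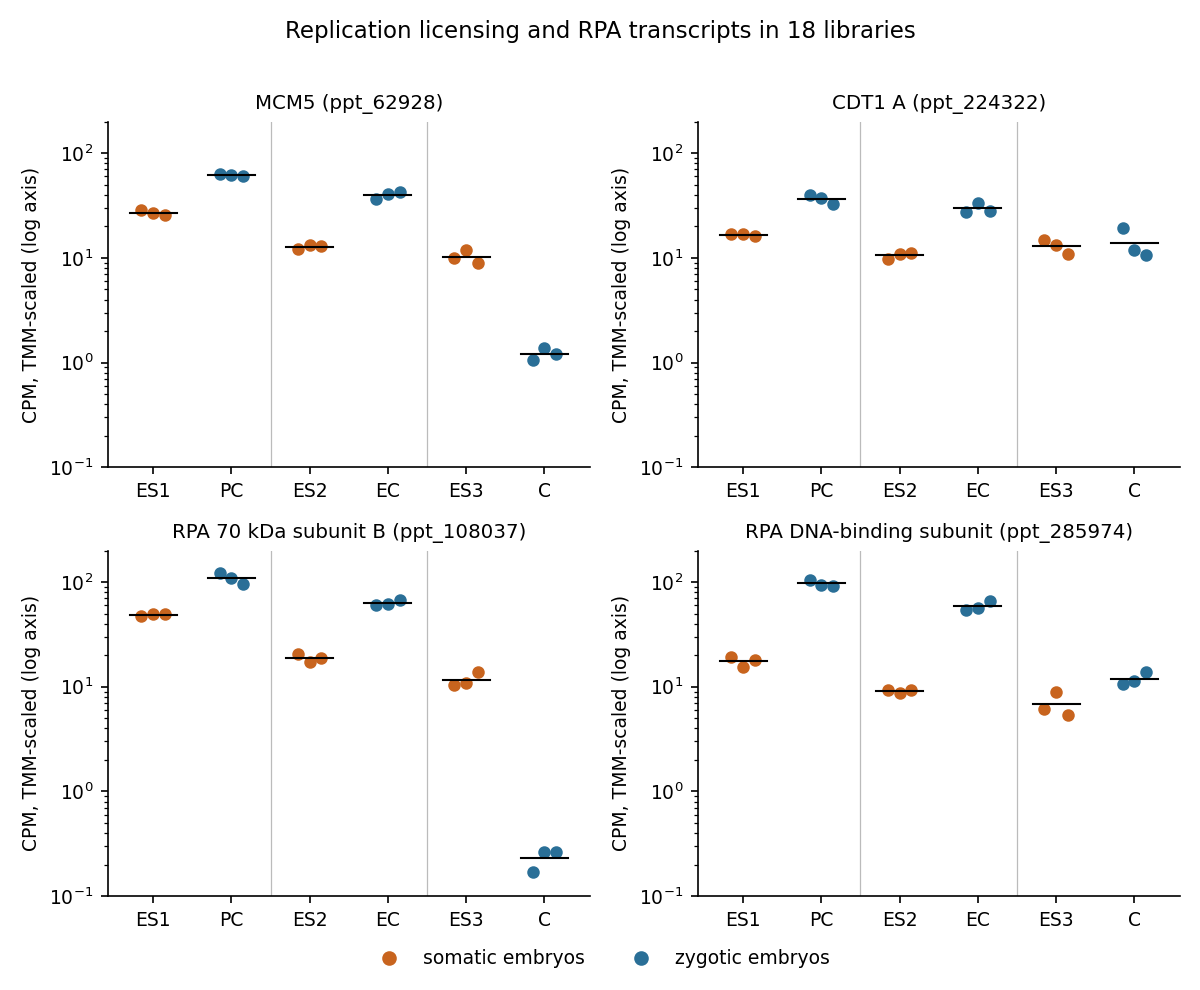
Level of each of the 4 members in every library (CPM after TMM scaling, log axis), with somatic stages in orange, each left of the zygotic stage it is paired with, and bars at the mean of 3 libraries. At PC and EC all 4 lie above the paired somatic stage, and at C MCM5 (1.06 to 1.39 CPM) and RPA subunit B (0.170 to 0.266 CPM) lie far below ES3, while CDT1 A at C overlaps ES3.

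In the earliest pair, every ES1 library was below every PC library for all 4 members, as it was for 32.6% of all kept transcripts. The log2 fold changes of ES1 against PC were -1.20 ± 0.12 for MCM5, -1.15 ± 0.19 for CDT1 A, -1.16 ± 0.13 for RPA subunit B and -2.47 ± 0.17 for ppt_285974 (SE of the edgeR fit, n = 3 each). Mean levels at PC were 2.29 times those at ES1 for MCM5 and 5.54 times for ppt_285974. All 4 passed the call rule as lower (log2 fold change below -1 with an adjusted p under 0.05 by Benjamini and Hochberg), which 13.5% of the 23118 transcripts did. Because the members were chosen on these libraries, nothing is read from that count.

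The same order held in the middle pair, with wider gaps. The log2 fold changes of ES2 against EC were -1.65 ± 0.12 for MCM5, -1.49 ± 0.19 for CDT1 A, -1.75 ± 0.13 for RPA subunit B and -2.70 ± 0.17 for ppt_285974. Every ES2 library was below every EC library for all 4, as for 34.4% of all transcripts (above for 34.1%), and all 4 met the rule as lower, beside 16.7%. Again the transcript ppt_285974 had the largest difference of the 4, with 9.12 ± 0.31 CPM at ES2 and 59.1 ± 6.5 CPM at EC (SD, n = 3 each).

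At the cotyledonary stage the 4 members parted. MCM5 averaged 10.3 ± 1.4 CPM at ES3 and 1.22 ± 0.17 CPM at C, a log2 fold change of 3.07 ± 0.14. RPA subunit B averaged 11.7 ± 1.8 CPM at ES3 and 0.233 ± 0.055 CPM at C, and the ratio of these means was 50.2, with a counting interval of 31.4 to 86.2 from the C counts alone. CDT1 A averaged 12.96 ± 1.97 CPM at ES3 and 14.0 ± 4.7 CPM at C, and its log2 fold change of -0.11 ± 0.19 lay within the spread between libraries. For ppt_285974 the means were 6.77 ± 1.84 CPM at ES3 and 11.9 ± 1.6 CPM at C, without overlap (log2 fold change -0.81 ± 0.17). No ES3 library overlapped a C library for MCM5 and RPA subunit B, which were higher at ES3 as were 38.1% of all transcripts by this measure, while 28% were lower without overlap. So 2 of the 4 met the call rule as higher, beside 29.9% of all transcripts, and none as lower, beside 15.1%.

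Within somatic maturation most of the difference lay in the earlier step. ES2 against ES1 gave log2 fold changes of -1.08 ± 0.12 for MCM5, -0.65 ± 0.19 for CDT1 A, -1.37 ± 0.13 for RPA subunit B and -0.94 ± 0.17 for ppt_285974, and no ES2 library reached an ES1 library in any of them, nor in 25.4% of all transcripts. MCM5 and RPA subunit B met the rule as lower, 2 of the 4, beside 9.6% of all transcripts. ES3 against ES2 gave values of -0.31 for MCM5, 0.29 for CDT1 A, -0.69 for RPA subunit B and -0.42 for ppt_285974. None of the 4 met the rule in this step, beside 2.72% of all transcripts called lower and 1.65% called higher.

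In zygotic embryos most of the difference lay in the later step. EC against PC gave -0.63 for MCM5, -0.30 for CDT1 A, -0.78 for RPA subunit B and -0.71 for ppt_285974, and none of these met the rule, beside 2.25% of all transcripts called lower. C against EC gave -5.03 ± 0.15 for MCM5, -1.10 ± 0.19 for CDT1 A, -8.06 ± 0.20 for RPA subunit B and -2.31 ± 0.17 for ppt_285974. No C library reached an EC library for any of the 4, nor for 39.1% of all transcripts (the reverse held for 34.8%), and all 4 met the rule as lower, beside 29% of all transcripts. The value of RPA subunit B rests on 4 to 7 counts per C library and is a fitted value, not a bound.

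How far C stood from the other stages depended on the scaling. A change of scaling shifts all transcripts of a comparison by nearly the same amount. The order of the 4 members and their place beside the median could therefore hardly change, and are no check on them. The median log2 fold change of all kept transcripts was, for ES3 against C, 0.19 under TMM, 1.34 with the summed counts of the kept transcripts as library size (kept totals) and 1.84 with the deposited totals. For C against EC the same medians were -0.07, -1.71 and -2.20. With the 2 alternatives, CDT1 A moved to 1.05 and 1.55 in ES3 against C and ppt_285974 to 0.36 and 0.85, so the sign of both turned, and both stayed below the median of all transcripts. MCM5 (4.23 and 4.72) and RPA subunit B (6.73 and 7.21) stayed above it. The share of higher calls among all calls in ES3 against C went with the scaling too, at 66.4%, 92.5% and 95.4%. In C against EC this share was 43.9%, 8.30% and 5.33%, in ES2 against EC 57.6%, 44.4% and 44.4%, in ES2 against ES1 46.7%, 31.4% and 31.5%, in ES3 against ES2 37.8%, 12.8% and 12.6%, and in EC against PC 72.1%, 61.6% and 61.6%.

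**Figure D2:**
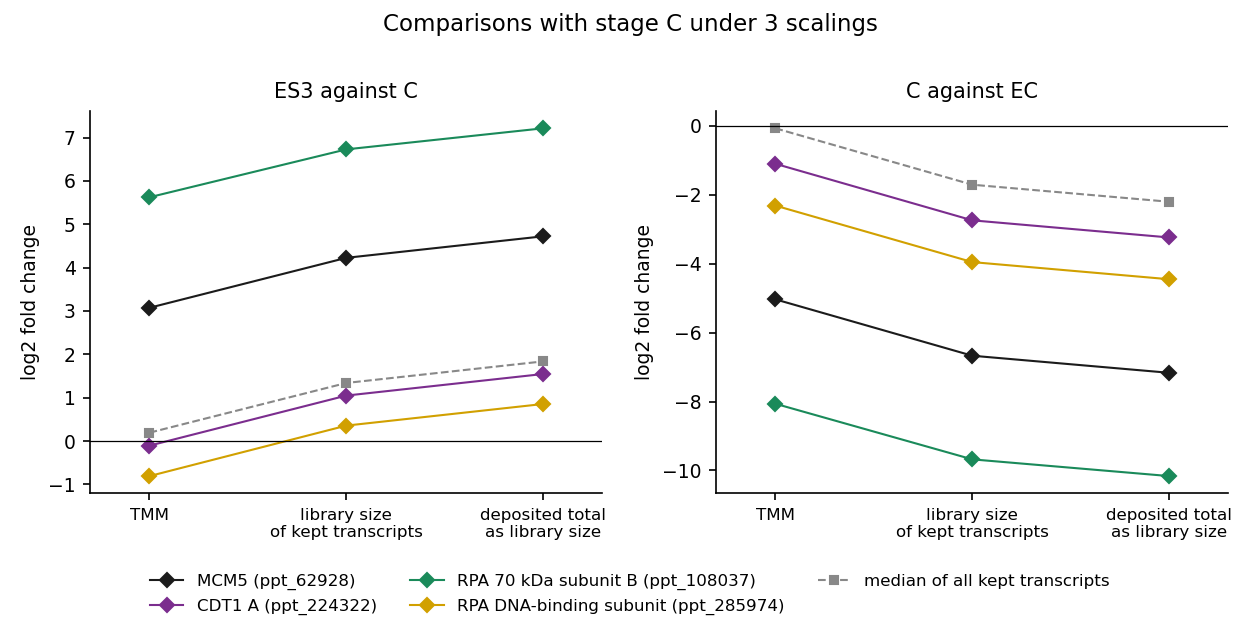
Log2 fold changes of the 4 members (diamonds) and the median of all 23118 kept transcripts (grey squares) in ES3 against C and in C against EC, under 3 ways to scale a library. CDT1 A and ppt_285974 cross 0 in ES3 against C (CDT1 A from -0.11 with TMM to 1.55 with deposited totals), and every line moves with the median.

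Ratios of counts within a library do not depend on the scaling. They do depend on how reads were divided among transcripts, and the part of the transcripts counted in C alone was not tested. The log2 ratio of MCM5 to CDT1 A counts was 0.70 ± 0.05 at ES1, 0.27 ± 0.03 at ES2 and -0.33 ± 0.21 at ES3 (SD, n = 3). It was 0.75 ± 0.11 at PC, 0.42 ± 0.15 at EC and -3.48 ± 0.62 at C. The ES1 and PC values overlapped, and the C libraries (-4.19 to -3.11) lay far under all others. No transcript lengths were used, so only the movement of a ratio between stages can be read, not its sign.

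The ratio of RPA subunit B to ppt_285974 separated the embryo types at every stage. It was 1.48 ± 0.21 at ES1, 1.05 ± 0.09 at ES2 and 0.81 ± 0.53 at ES3. It was 0.16 ± 0.08 at PC, 0.11 ± 0.07 at EC and -5.70 ± 0.27 at C. The ratio was higher in every ES1, ES2 and ES3 library than in every PC and EC library, and lowest in the C libraries, which held 4 to 7 counts of RPA subunit B and 251 to 310 of ppt_285974.

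**Figure D3:**
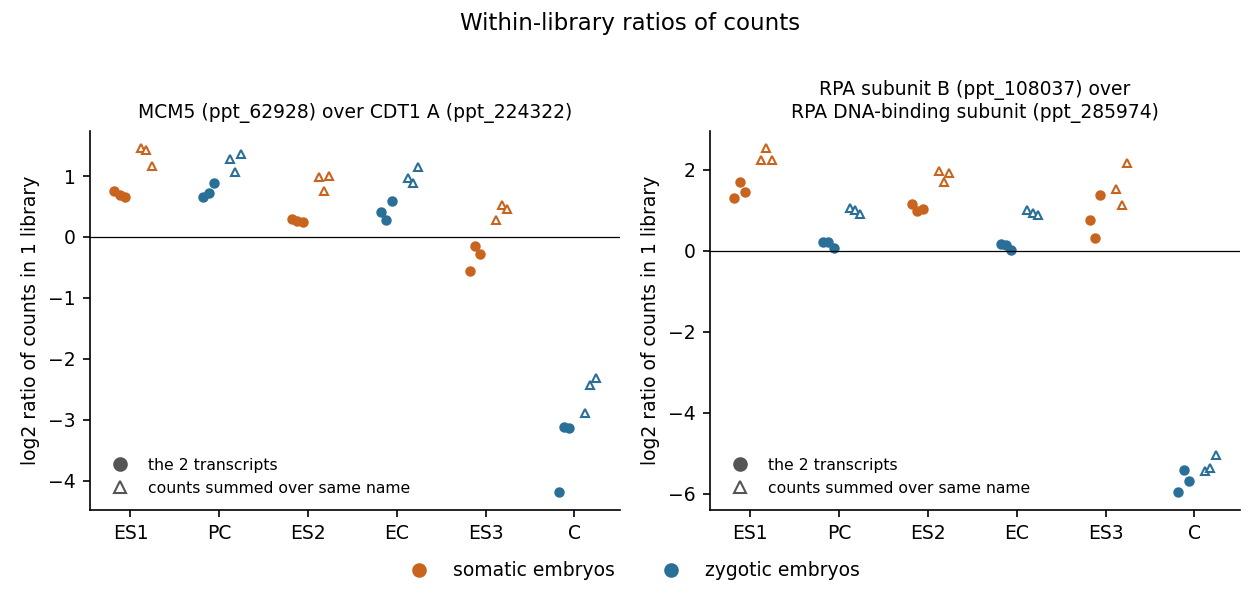
Log2 ratio of counts in each library for MCM5 over CDT1 A (left) and RPA subunit B over ppt_285974 (right), with somatic stages in orange and zygotic in blue. Filled circles are the 2 transcripts, and open triangles are counts summed over each member and transcripts of the same or a similar name (for ppt_285974, ppt_285975). Both ratios are lowest at C (-3.48 and -5.70 on average for the circles).

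Each member has relatives in the table with the same or a similar protein name, taken for ppt_285974 by its neighbouring number. Reads of near-identical copies may have been split among them. These relatives were not members, so they were tested, but they come from tables that the study built from these libraries and are not independent evidence of a direction. All 8 other MCM5 transcripts were kept, and all 8 were called lower in ES2 against EC (log2 fold changes -1.72 to -1.41) and higher in ES3 against C (2.63 to 4.07), with edgeR's quasi-likelihood test and Benjamini-Hochberg adjustment over the 23118. In ES1 against PC 7 of 8 were lower, in ES2 against ES1 7 of 8, and in C against EC all 8 (-5.71 to -4.61). Of all transcripts, 16.7% were called lower in ES2 against EC and 29.9% higher in ES3 against C. The shares called lower in ES1 against PC, ES2 against ES1 and C against EC were 13.5%, 9.6% and 29%. The most abundant of them, ppt_62926, averaged 14.41 ± 1.93 CPM at ES3 and 1.65 ± 0.55 CPM at C (log2 fold change 3.13 ± 0.20, adjusted p = 4.29e-09). The next, ppt_62929, averaged 12.6 ± 2.0 CPM at ES3 and 1.64 ± 0.17 CPM at C (log2 fold change 2.94 ± 0.17, adjusted p = 1.79e-09).

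The 5 other CDT1 transcripts did not all go one way. In ES2 against EC, 4 were lower and 1, the CDT1-like ppt_37385, was higher, beside 16.7% and 22.7% of all transcripts. At ES3 against C none of the 5 was called in either direction with edgeR (log2 fold changes -0.81 to 0.84), where 2 were higher and 1 lower at an unadjusted p under 0.05. With kept totals or deposited totals, 4 of the 5 were called higher there, all but ppt_37385. Of the named pair, ppt_224323 averaged 11.3 ± 1.2 CPM at ES3 and 12.5 ± 5.2 CPM at C (log2 fold change -0.15 ± 0.20, adjusted p = 0.541), and ppt_224325 averaged 7.74 ± 1.07 CPM at ES3 and 4.34 ± 1.00 CPM at C (0.84 ± 0.18, adjusted p = 0.000735, under the fold threshold). In C against EC the transcripts ppt_224323 and ppt_224325 were lower by different amounts, at -1.15 ± 0.20 and -2.78 ± 0.19. The odd transcript ppt_37385 averaged 6.62 ± 0.53 CPM at C and 0.5999 ± 0.1367 CPM at EC (log2 fold change 3.45 ± 0.37, adjusted p = 4.06e-07), against the direction of the other 4.

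Each RPA member had a relative of its own. RPA subunit B shares its name with ppt_108036, which averaged 15.9 ± 2.0 CPM at ES2 and 53.4 ± 4.9 CPM at EC (log2 fold change -1.75 ± 0.17, adjusted p = 4.24e-07). At C it held 2, 1 and 4 counts, 7 in all with an exact Poisson 95% interval of 2.81 to 14.42, and the mean at ES3 was 94.1 times that at C with a counting interval of 45.7 to 234.1. The neighbour of ppt_285974 in the numbering, ppt_285975, matched to replication factor A 1 of castor bean, was below the filter and was not tested. It averaged 0.410 CPM at ES1, 0.479 CPM at ES2 and 0.261 CPM at ES3, and 3.14 CPM at PC, 2.00 CPM at EC and 0.730 CPM at C.

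**Figure D4:**
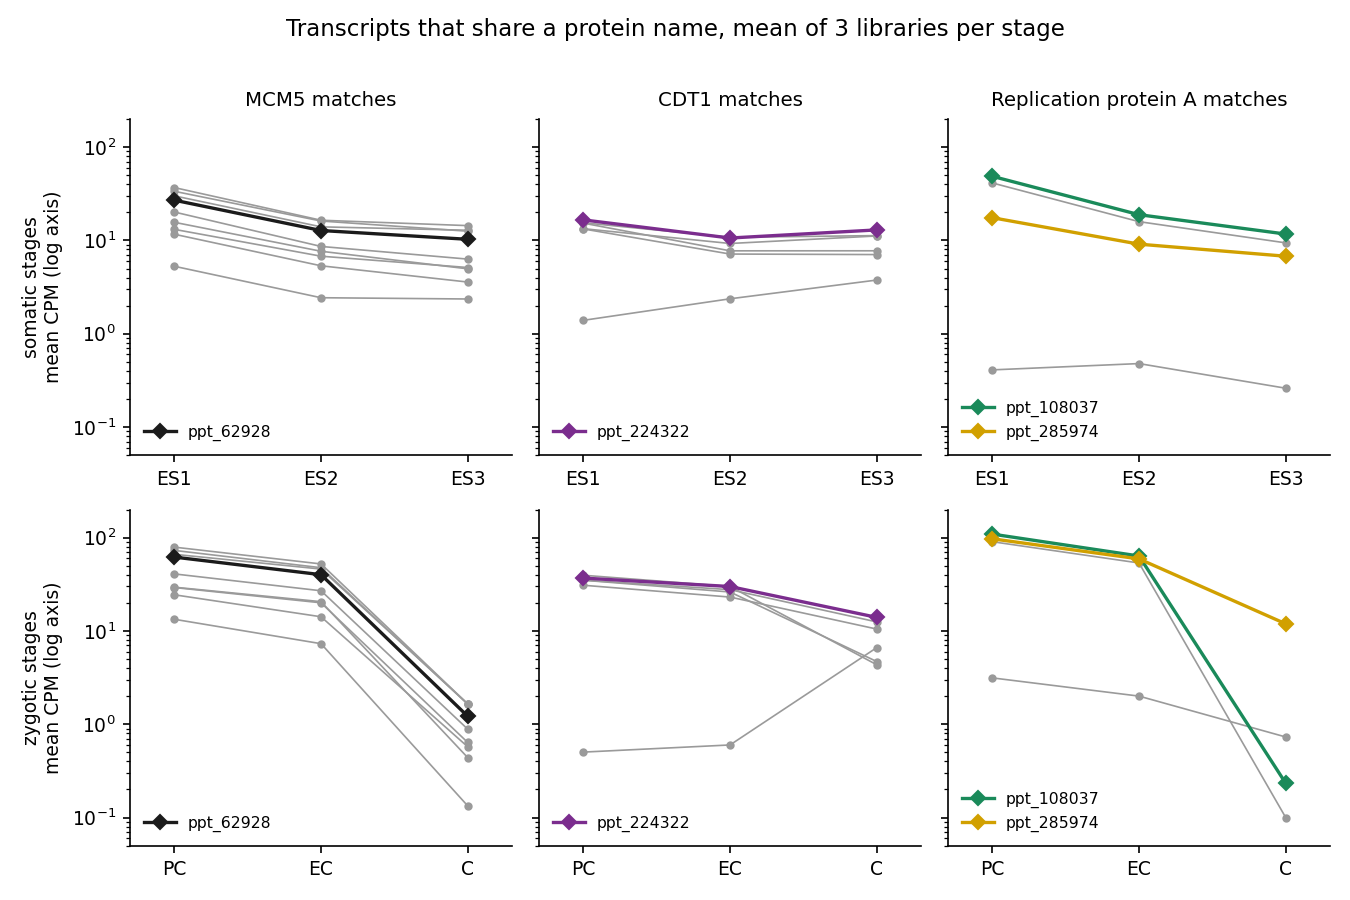
Mean CPM of 3 libraries (log axis) at the somatic stages (top) and the zygotic stages (bottom) for transcripts matched to MCM5, CDT1 and replication protein A, with the 4 members in colour and the others in grey. The MCM5 lines run in parallel, whereas at C the CDT1 lines fan out and ppt_37385 (6.62 CPM) lies above 2 of the others.

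The rest of the replication machinery was read from 50 transcripts that are not members: the relatives above, 13 other licensing transcripts (other MCM subunits, origin recognition complex subunit 1 and 4 named only DNA helicase) and 22 for DNA synthesis (polymerases, primase, ribonucleotide reductase and the like). Of the 50, 49 were kept. These are transcripts and not genes: 8 were matched to MCM5, and several others share a name and neighbouring numbers. Such copies may share reads and move together. The counts and medians here and below are therefore not over independent genes. In ES1 against PC 4 were higher and 29 lower, with a median log2 fold change of -1.05 beside 0.03 for all transcripts. In ES2 against EC all 49 were called, 4 higher and 45 lower (median -1.39 beside -0.04). In ES3 against C the counts were 28 higher and 1 lower under TMM (median 1.21 beside 0.19), beside 29.9% and 15.1% of all transcripts. With kept totals or deposited totals they were 47 higher and 0 lower. Of all 23118 transcripts, 13982 were called higher there with kept totals and 17531 with deposited totals. Over all transcripts 24.2% were called higher and 13.5% lower in ES1 against PC, and 22.7% higher and 16.7% lower in ES2 against EC.

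The same transcripts were also read over the steps within each embryo type. In ES2 against ES1, 27 of the 49 were lower and none higher with edgeR (4 higher and 43 lower at an unadjusted p under 0.05, and 0 higher and 28 lower with DESeq2, and 1 higher without ES1 replicate C), beside 8.42% of all transcripts called higher and 9.6% lower. In ES3 against ES2 none was called by edgeR or DESeq2, with 0 higher and 19 lower at an unadjusted p under 0.05, and without ES3 replicate C 1 was called lower. Of all transcripts, 1.65% were called higher and 2.72% lower in this step. In EC against PC 1 was higher, the ribonucleotide reductase small chain ppt_54841 (0 without PC replicate 1), beside 5.83% of all transcripts. None was lower, beside 2.25% of all transcripts (36 lower at an unadjusted p under 0.05, and 0 with DESeq2). In C against EC 4 were higher and 44 lower (median -3.12 beside -0.07), while 22.7% of all transcripts were called higher and 29% lower.

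The 13 other licensing transcripts included 7 that were lower in ES1 against PC and 10 that were lower in ES2 against ES1, beside 13.5% and 9.6% of all transcripts. All 13 were lower in ES2 against EC and in C against EC, and 12 of 13 were higher in ES3 against C. The shares of all transcripts in these 3 calls were 16.7%, 29% and 29.9%. MCM4 (ppt_77031), another subunit of the ring, averaged 22.5 ± 3.8 CPM at ES3 and 2.07 ± 0.38 CPM at C (log2 fold change 3.45 ± 0.17, adjusted p = 2.45e-10). Origin recognition complex subunit 1 (ppt_235651), which binds the origin, averaged 24.3 ± 2.9 CPM at ES3 and 10.1 ± 0.6 CPM at C (1.26 ± 0.13, adjusted p = 5.49e-07). A transcript matched to a DNA helicase of spinach (ppt_174738) averaged 24.2 ± 2.7 CPM at ES3 and 6.473 ± 1.502 CPM at C (1.90 ± 0.16, adjusted p = 6.18e-08). The exception was an MCM6 match (ppt_142887), with 46.6 ± 6.9 CPM at ES3 and 34.6 ± 6.2 CPM at C, a log2 fold change of 0.43 ± 0.14 under the fold threshold, and with kept totals (1.59) or the deposited totals (2.09) it was called higher as well.

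Of the 22 DNA synthesis transcripts, 19 were lower and 3 higher in ES2 against EC, beside 16.7% and 22.7% of all transcripts. In ES3 against C, 7 were higher, 1 was lower and 14 were not called under TMM, beside 29.9% of all transcripts called higher and 15.1% lower. With kept totals or deposited totals 21 were higher and none lower, where 13982 and 17531 of all 23118 transcripts were called higher. Primase (ppt_179836), which lays the RNA primers, averaged 15.8 ± 1.9 CPM at ES3 and 5.83 ± 1.65 CPM at C (log2 fold change 1.44 ± 0.18, adjusted p = 4.53e-06). A DNA polymerase (ppt_223136) averaged 15.2 ± 1.7 CPM at ES3 and 14.5 ± 0.6 CPM at C (0.07 ± 0.10, adjusted p = 0.578), and was called higher with kept totals (1.22) and with the deposited totals (1.72). The catalytic subunit of DNA polymerase delta (ppt_72236) was the transcript called lower, with 43.2 ± 12.8 CPM at ES3 and 98.1 ± 3.8 CPM at C (-1.18 ± 0.16, adjusted p = 1.18e-05), and it was not called with kept totals (-0.01) or with the deposited totals, where its sign turned (0.49). Without ES3 replicate C the number of transcripts called lower was 0. It was also the transcript of the 49 that was not called in C against EC (0.33 ± 0.16, adjusted p = 0.0837), and there the alternatives called it lower, at -1.31 with kept totals and -1.81 with the deposited totals.

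The 4 transcripts that ran against the rest were the same in ES1 against PC, ES2 against EC and C against EC. They were the CDT1-like ppt_37385, a ribonucleotide reductase small chain (ppt_54841) and the polymerase epsilon catalytic subunits ppt_218513 and ppt_218516. The transcript ppt_218516 averaged 108.1 ± 9.9 CPM at ES2 and 4.30 ± 0.69 CPM at EC (log2 fold change 4.65 ± 0.30, adjusted p = 6.85e-09), and 45.9 ± 20.8 CPM at C against those 4.30 CPM at EC (3.42 ± 0.28, adjusted p = 2.48e-08). Polymerase epsilon copies the leading strand, and the reductase supplies deoxyribonucleotides.

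**Figure D5:**
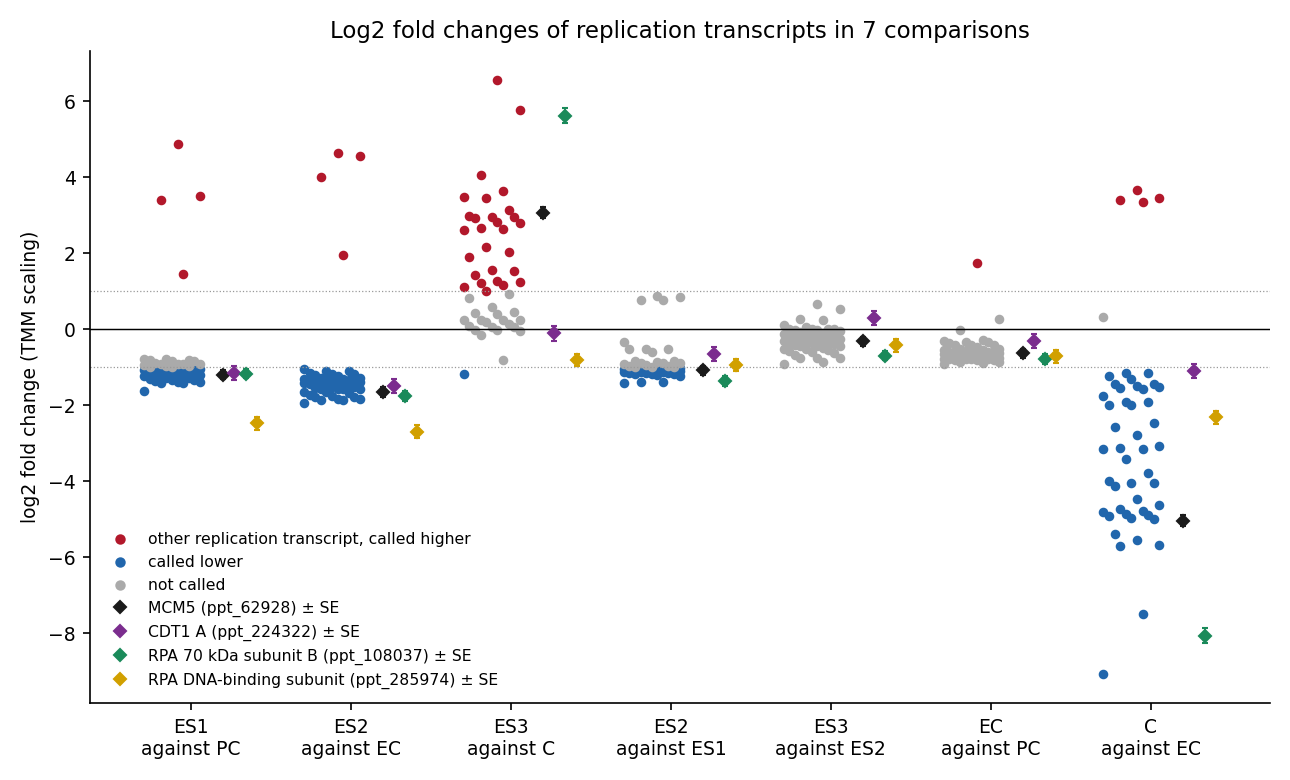
Log2 fold change (TMM scaling) of the 49 other replication transcripts, as dots coloured by call, and of the 4 members, as diamonds with SE, in 7 comparisons with the first-named stage on top of the fold change. In ES2 against EC 45 dots are called lower (16.7% of all transcripts), and in ES3 against C 28 are called higher under this scaling (29.9% of all transcripts). The member ppt_285974 lies below the other members in the first 2 comparisons.

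Whether somatic and zygotic embryos differed in their steps was tested as an interaction in the same fit, a test added after the data had been seen. For the first step, ES2 minus ES1 against EC minus PC, none of the 49 passed with edgeR (2 higher and 8 lower at an unadjusted p under 0.05, and 2 higher and 0 lower with DESeq2, and 2 higher with edgeR without C replicate 1), beside 1.07% of all transcripts higher and 2.08% lower. For the late step, ES3 minus ES2 against C minus EC, 44 were higher and 4 lower, beside 25.9% and 18% of all transcripts, and the median difference was 2.64 on the log2 scale. The 4 lower were the same 4 transcripts as above.

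The members fell into 2 pairs by their course over the 6 stages, C included. At C, MCM5 and RPA subunit B averaged 1.22 and 0.233 CPM, and CDT1 A and ppt_285974 averaged 14.0 and 11.9 CPM. Whether the pairs hold without C was not tested. Over the 18 libraries, Pearson's r of log2(CPM + 1) was 0.99 between MCM5 and RPA subunit B and 0.93 between CDT1 A and ppt_285974, and 0.64 to 0.72 between members of different pairs. The libraries of a stage share that stage, so these values describe 6 stages more than 18 points. Of the kept transcripts, 717 were above r = 0.95 with MCM5, 720 with RPA subunit B, 65 with ppt_285974 and 9 with CDT1 A.

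Among 1688 kept transcripts with a protein name, those most like MCM5 were an MCM6 match (ppt_77028, r = 0.9963), a zinc-finger transcript matched to the monoamine oxidase A repressor R1 (ppt_129596, r = 0.9961) and a WD40-repeat transcript (ppt_191514, r = 0.9946). Those most like RPA subunit B were the MCM4 matches ppt_77032 (r = 0.9978) and ppt_77031 (r = 0.9977) and a microtubule end-binding protein (ppt_256775, r = 0.9953). CDT1 A was closest to a Topbp1 match (ppt_151880, r = 0.947), a polymerase epsilon catalytic subunit (ppt_232847, r = 0.9403) and a chloroplast positioning protein (ppt_102238, r = 0.9392). For ppt_285974 the closest were 2 leucine-rich repeat receptor-like kinases (ppt_136440, r = 0.973, and ppt_136439, r = 0.9673) and the high mobility group protein HMGB7 (ppt_230052, r = 0.9685).

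Lists of marker transcripts were read beside the members. The 21 transcripts for cyclins and cyclin-dependent kinases summed to 247.3 to 269.3 CPM at ES1, 138.7 to 160.5 at ES2 and 132.9 to 150.0 at ES3, and to 415.6 to 472.9 at PC, 294.4 to 330.4 at EC and 88.4 to 112.3 at C, where 5 of the 21 were at 0. Chromosome condensation and spindle transcripts, 16 in all, summed to 450.7 to 528.7 CPM at ES1, 187.6 to 208.9 at ES2 and 108.9 to 162.1 at ES3, and to 861.4 to 915.0 at PC, 486.9 to 681.5 at EC and 54.5 to 56.8 at C. So the sums of both division lists were higher at PC than at ES1, higher at EC than at ES2 and lower at C than at ES3, as MCM5 was. For the condensation and spindle list the EC sums overlapped those of ES1, unlike MCM5. Their part in the members' differences was not tested.

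Transcripts of late embryogenesis abundant and storage proteins, 62 in all, were read beside the embryo label. The 62 were chosen with results of these libraries known, so they are no check of the label. They summed to 6693 to 7397 CPM at ES1, 11260 to 12540 at ES2 and 11710 to 16430 at ES3, and to 2772 to 2987 at PC, 3333 to 3685 at EC and 13340 to 14800 at C. Some were at 0 in zygotic stages: 2 at PC, 4 at EC and 15 at C. In ES1 against PC 51 of 62 were higher and 2 lower, beside 24.2% and 13.5% of all transcripts. In ES2 against EC 58 were higher and 1 lower, beside 22.7% and 16.7%. A pair of chloroplast photosynthesis transcripts, the markers of green tissue, summed to at most 12.6 CPM in any somatic library and to at most 4.17 CPM in any zygotic library, and their part was not tested either.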

How the data were processed

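Total RNA of 18 embryo samples was sequenced, and the authors trimmed the reads, extended the maritime pine reference transcriptome with an assembly of them (Trinity 2.11, then redundancy reduction), mapped the reads to the maritime pine transcriptome with BWA and counted them per transcript. The deposited table holds these raw counts, with 0 columns unused here. BWA's version is not given in the sources used here. Reads were not counted per molecule, so intervals cover counting error only.

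The 23118 transcripts that exceeded 2 CPM in 6 or more libraries were scaled by TMM and fitted for 6 groups at once with edgeR 4.0.16 (quasi-likelihood F-test, limma 3.58.1, R 4.3.3). A transcript was called where its log2 fold change passed 1 or -1 and its adjusted p (Benjamini-Hochberg) was under 0.05. Standard errors are the fold change over the root of F. DESeq2 1.42.0, other filters, scalings, thresholds and fits, counts summed over a member and its relatives, a replicate block and leaving out each library were alternatives. The fit was tested on simulated data. Replicates differed by a chi-square of 12.6 to 158.1 per degree of freedom, so none was a repeated deposit.

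The members and all lists were chosen with earlier results of these data known. Besides the members, the text names the 2 most abundant relatives of each name, up to 4 abundant transcripts per other list, the 3 transcripts most like each member by log2(CPM + 1), and transcripts that were exceptions to a count, chosen after their values were seen. Kept transcripts held 99.58 to 99.8% of the counts outside C and 70.39 to 70.79% in C. Sequences of the members were not used here.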

Additional observations from a re-analysis of the deposited data

Results flagged for a closer look

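The step to the cotyledonary stage differed between somatic and zygotic embryos by the interaction test of the edgeR fit (ES3 minus ES2 against C minus EC, added after the data had been seen). Of the 49 other replication transcripts 44 had a positive difference past the call rule and 4 a negative one, beside 25.9% and 18% of all transcripts. The differences below are on the log2 scale. A positive one means that the log2 fold change of the somatic step was above that of the zygotic step.

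Among the relatives of the members, the MCM5 transcripts ppt_62926 and ppt_62929 differed by 4.80 and 4.50 (4.495 before rounding), and the CDT1 transcripts ppt_224323 and ppt_224325 by 1.21 and 2.79. The RPA subunit B relative ppt_108036 differed by 8.30, a fitted value that rests on 1 to 4 counts per C library. In the other licensing transcripts the difference was 1.48 for MCM6 (ppt_142887), 3.73 for a DNA helicase (ppt_174738), 2.67 for origin recognition complex subunit 1 (ppt_235651) and 4.79 for MCM4 (ppt_77031). In DNA synthesis it was 3.07 for primase (ppt_179836), 1.65 for a DNA polymerase (ppt_223136) and -3.49 for polymerase epsilon (ppt_218516).

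Other division transcripts were past the same rule. The histone chaperone ASF1B (ppt_157417) differed by 2.43 and histone H1 (ppt_170248) by 4.08. Cyclin B1 (ppt_52823) differed by 1.86 and cyclin D3-1 (ppt_202713) by 4.75. The mitotic kinesin KIN-5C (ppt_118849), DNA topoisomerase 2 (ppt_206182), condensin subunit 1 (ppt_191920) and condensin-2 subunit D3 (ppt_193963) differed by 2.48, 4.86, 2.60 and 1.61.

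A negative difference was found for a cyclin family transcript (ppt_222279, -1.42) and for the late embryogenesis abundant transcripts ppt_155780 (-3.97), ppt_200866 (-1.04) and ppt_70950 (-3.78). Those of ppt_222279 and ppt_200866 changed sign when libraries were scaled by size alone.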

How the results depend on the processing

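Scaling moved the members most. With library size alone, MCM5, CDT1 A, RPA subunit B and ppt_285974 had log2 fold changes of -1.39, -1.35, -1.36 and -2.67 in ES1 against PC, -1.94, -1.79, -2.04 and -2.99 in ES2 against EC, 4.23, 1.05, 6.73 and 0.36 in ES3 against C, -1.27, -0.84, -1.56 and -1.13 in ES2 against ES1, and -6.67, -2.74, -9.68 and -3.95 in C against EC. In ES3 against ES2 the first 3 were at -0.50, 0.10 and -0.91, and MCM5 was at -0.72 in EC against PC. With the deposited totals the same values were -1.40, -1.35, -1.36 and -2.67, then -1.94, -1.79, -2.04 and -2.99, then 4.72, 1.55, 7.21 and 0.85, then -1.27, -0.84, -1.56 and -1.13, then -7.17, -3.24, -10.16 and -4.45, with -0.50, 0.10 and -0.91 in ES3 against ES2 and -0.72 for MCM5 in EC against PC. Under both, 47 other replication transcripts were higher and 0 lower in ES3 against C, and 2 were lower in ES3 against ES2. The late step became 0.012 and 0.51 for ppt_222279 and 0.39 and 0.89 for ppt_200866, and with deposited totals ppt_72236 was at 0.49 in ES3 against C and ppt_222279 at -0.10 in C against EC.

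With at least 1 count in any library as the filter, MCM5 was at -1.31, -1.74 and -5.15 in ES1 against PC, ES2 against EC and C against EC, CDT1 A at -1.27 in ES1 against PC and RPA subunit B at -8.18 in C against EC. With 1 CPM in at least 3 libraries, MCM5 was at -5.14 and RPA subunit B at -8.17 in C against EC. Under both filters 2 transcripts were lower in ES3 against C and 0 higher in EC against PC. That last count was also 0 at an adjusted p under 0.01, with only the 2 groups compared and with the replicate block. Without a fold threshold 45 were lower in ES1 against PC, 2 lower in ES3 against C, 2 higher and 41 lower in ES2 against ES1, 13 lower in ES3 against ES2, 28 lower in EC against PC and 1 lower in the first step. In the first step 2 were higher with DESeq2 and 2 without the C stage.

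Counts summed over a member and its relatives gave -1.11 for MCM5 in ES1 against PC, and 5.98 and -8.45 for RPA subunit B in ES3 against C and C against EC. The MCM5 to CDT1 log2 ratio became 1.35, 0.91 and 0.42 at ES1, ES2 and ES3, and 1.24, 1.00 and -2.55 at PC, EC and C. The ratio of the RPA transcripts became 2.33, 1.85 and 1.604, and 0.99, 0.94 and -5.28. The cause of these shifts was not tested.

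Leaving out 1 library gave 0 to 1 higher in ES2 against ES1 (1 without ES1 replicate C), 0 to 1 lower in ES3 against C (0 without ES3 replicate C), 0 to 1 lower in ES3 against ES2 (1 without ES3 replicate C), 0 to 1 higher in EC against PC (0 without PC replicate 1) and 0 to 2 higher in the first step (2 without C replicate 1). It gave -0.67 to -0.29 for ppt_285974 in ES3 against ES2, 5.44 to 5.72 and -8.17 to -7.89 for RPA subunit B in ES3 against C and C against EC, and -5.14 to -4.94 for MCM5 in C against EC. The library in brackets is the first that gave the number. In all 8 counts moved, so some of these numbers also moved without another library. The other 316 counts and 498 member values without 1 library stayed near their values, as did all 28 member values with DESeq2 and with the replicate block. The deviations of libraries with the same letter or number correlated at r from -0.43 to 0.42 in somatic and from -0.32 to 0.38 in zygotic embryos. Pairs with different letters or numbers spanned -0.44 to 0.59 in both embryo types. With 3 libraries per stage these values cannot decide whether libraries of the same number share a sample or batch. The block moved no other count of replication transcripts by over 1.5 times. The low counts of RPA subunit B at C limit its fold change.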

Other observations

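Chromatin and mitosis transcripts were read beside replication. They too come from tables built on these libraries and are not independent evidence of a direction. Of 25 histone and chromatin assembly transcripts, 21 were lower and 1 higher in ES2 against EC, and 18 were lower in C against EC (edgeR). The shares of all transcripts were 16.7% lower and 22.7% higher in ES2 against EC, and 29% lower in C against EC. Histone H1 (ppt_170248), the linker histone, averaged 5.88 ± 0.67 CPM at ES2 and 33.2 ± 7.3 CPM at EC (SD, n = 3 each). The histone H3.3 match ppt_219715, a replacement histone that is laid down outside replication, was the transcript called higher, with 38.4 ± 10.3 CPM at ES2 and 6.34 ± 4.2 CPM at EC (log2 fold change 2.61 ± 0.46, adjusted p = 0.000173 in edgeR's test).

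All 16 chromosome condensation and spindle transcripts were lower in ES2 against EC, and 15 of 16 in C against EC, beside 16.7% and 29% of all transcripts. DNA topoisomerase 2 (ppt_206182), which untangles the copied strands, averaged 17.5 ± 4.9 CPM at ES3 and 1.84 ± 0.56 CPM at C (log2 fold change 3.26 ± 0.24). Of the 21 cyclin and kinase transcripts, 16 were lower and 2 higher in ES2 against EC, beside 16.7% and 22.7% of all transcripts. The pair that was higher were the cyclin family transcript ppt_222279 (25.4 ± 1.0 CPM at ES2 and 12.3 ± 1.9 CPM at EC) and cyclin-U2-1 (ppt_198381, 5.63 ± 0.85 CPM at ES2 and 0.5572 ± 0.1199 CPM at EC). The Kip-related kinase inhibitor ppt_203174, of a family that holds back the cycle, averaged 2.79 ± 0.63 CPM at ES3 and 8.74 ± 0.41 CPM at C (log2 fold change -1.64 ± 0.20 under TMM), a difference that was not called with library size alone (-0.48) or with the deposited totals (0.02).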
